A study of Homo sapiens with 3 samples.

Results

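In DU145 cells without ETS1, 438 of the 1020 regions bound by the transcription factor ETS2 (42.9%) overlapped no region of ZMYND11 by as much as 1 bp. These 438 regions are described here by their place in the ETS2 list, their distance from ZMYND11, their grouping along the chromosomes and their overlap with ZMYND11 in parental cells. They were chosen by a direct comparison of the ETS2 list with the ZMYND11 list of the same knockout cells, so the absence of overlap is the choice itself and not a result. The remaining 582 ETS2 regions overlapped ZMYND11 and are used for comparison.

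ETS2 and ETS1 are closely related members of the ETS family, which share a DNA-binding domain that recognises a purine-rich core, and both are phosphorylated by ERK downstream of Ras. ZMYND11, also called BS69, is a chromatin reader that recognises a methylated lysine of the histone variant H3.3 in the bodies of transcribed genes and acts as a co-repressor. It does not bind a DNA motif of its own as ETS factors do, so a place occupied by ETS2 can lie beside ZMYND11, on it or far from it. The title of the study names ZMYND11 as the partner through which ETS1 and ETS2 take opposing roles. The comparison of both proteins in the same cells asks at which ETS2 sites ZMYND11 was found.

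The data were 3 lists of regions from ChIP-seq, in which DNA attached to a protein is pulled down with an antibody and sequenced, so that the places the protein occupies can be read off the genome. All were made in DU145, an established prostate adenocarcinoma line from a brain metastasis. ZMYND11 was precipitated from parental cells (536 regions) and from cells with ETS1 knocked out (15676 regions), and ETS2 from ETS1-knockout cells (1020 regions), with 1 library in each group. ETS2 in parental cells was not analysed here, and whether the knockout cells were 1 clone or a pool is not given in the sources used here. With single libraries no difference can be set against a spread between replicates. Regions are not replicates of a condition, so shares and medians are given as descriptions, without tests. Intervals are 95% Wilson intervals, which cover counting error only and treat neighbouring regions as independent. The files hold positions without read counts, so the depth behind each region is unknown. Coordinates are on hg19, as deposited.

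The regions without ZMYND11 were not confined to the end of the ETS2 list. They were found from place 9 to place 1020, with a median of 632 (quartiles 390 and 846), against a median of 410 (quartiles 190 and 686) for the ETS2 regions overlapping ZMYND11. What the order of the list stands for is not stated in the sources used here. The first 102 places held 18 of them (17.6%, interval 11.5 to 26.2%). The fifth 10% of the list held 48 (47.1%, 37.7 to 56.7%), and the last 102 places held 64 (62.7%, 53.1 to 71.5%). The increase along the list was not smooth, since the fifth 10% held more than the sixth, which held 44, and the seventh held 52 against 50 in the eighth. Width did not separate the groups: the median was 496 bp (range 378 to 501) without ZMYND11 and 497 bp (290 to 501) with it.

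**Figure D1:**
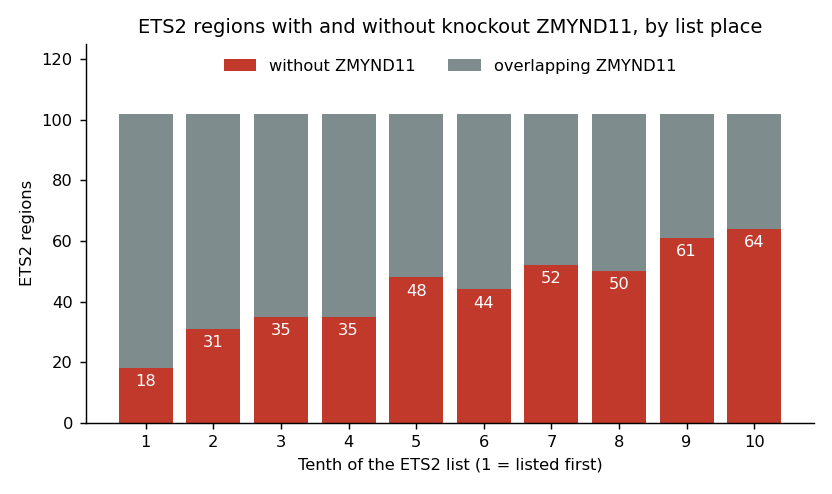
Number of ETS2 regions (vertical axis) in each 10% of the ETS2 list, in list order (horizontal axis), split into regions without (red, number printed) and with (grey) an overlapping ZMYND11 region in knockout cells. The red part goes from 18 of 102 regions at the start of the list to 64 of 102 at its end.

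Absence of overlap mostly meant a ZMYND11 region nearby and not one far away. From edge to edge, the nearest ZMYND11 region in knockout cells was a median of 1005 bp from an ETS2 region without overlap (quartiles 358 and 2532 bp, 436 regions with a ZMYND11 region on their chromosome). The gap was at most 250 bp for 86 regions (19.6%) and 250 bp to 1 kb for 132 (30.1%). A further 183 (41.8%) had it at 1 to 10 kb, 13 (2.97%) at 10 to 100 kb and 22 (5.02%) beyond 100 kb. The last 2 were mitochondrial, and the ZMYND11 list held no mitochondrial region. The name "without ZMYND11" therefore holds for the stretch of about 500 bp that was listed, while 218 of the 438 (49.8%) had ZMYND11 within 1 kb.

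**Figure D2:**
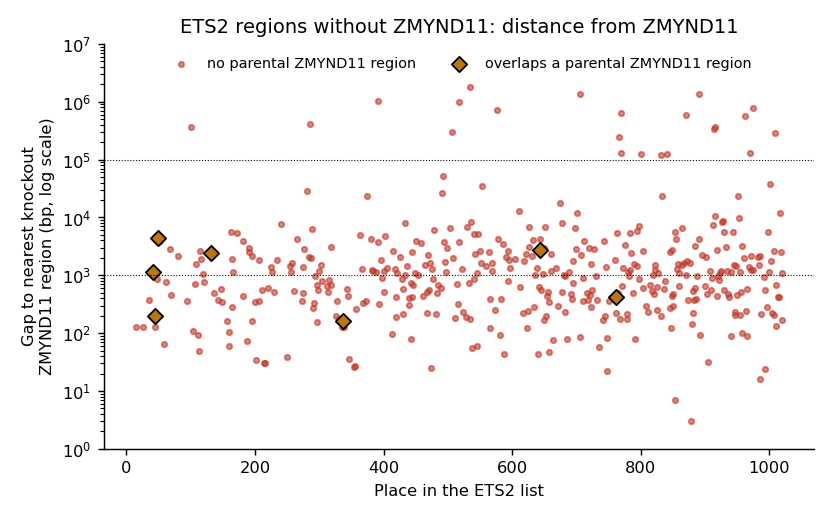
Gap in bp from each ETS2 region without ZMYND11 to the nearest ZMYND11 region of knockout cells (vertical axis, log scale) against its place in the ETS2 list (horizontal axis), with dotted lines at 1 kb and 100 kb. Diamonds are the 7 regions that overlapped a ZMYND11 region of parental cells, and the 2 mitochondrial regions have no gap and are not drawn. Most points lie between 100 bp and 10 kb at every part of the list, and 18 of the 22 points above the upper line lie in the second 50% of the list. Of all 438 regions, 167 are in the first 50%.

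The limit of 1 bp split regions that were nearly alike in position. The smallest gaps were 3 bp at chr5:133746757-133747258, 7 bp at chr9:35560033-35560513, 16 bp at chr21:17269321-17269796, 22 bp at chr5:177636667-177637159 and 24 bp at chr4:378551-379052. On the other side of the limit, the smallest overlaps were 9 bp at chr11:125494939-125495425, 11 bp at chr11:825759-826250, 11 bp at chr3:50388801-50389296, 14 bp at chr22:40766750-40767248 and 17 bp at chr1:38178345-38178843. The ZMYND11 regions next to these 10 stood at places 306 to 8491 of their list.

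Most of the neighbouring ZMYND11 regions were among those listed first for that protein. Their median place was 628 of 15676 (quartiles 232 and 1702), against a median place of 578 (quartiles 208 and 1331) for the ZMYND11 regions that ETS2 overlapped. For 319 of the 438 regions (72.8%, interval 68.5 to 76.8%) the nearest ZMYND11 region was in the first 10% of its list, against 79.7% (76.3 to 82.8%) of the ETS2 regions with ZMYND11. It was in the second 50% of its list for 46 (10.5%, 7.97 to 13.7%), against 2.58% (1.57 to 4.21%) of those with ZMYND11, so late-listed neighbours made up a larger share without overlap. Early places went with short and middle distances: the median place of the neighbour was 379 for gaps up to 250 bp, 540 for 250 bp to 1 kb and 567 for 1 to 10 kb. It was 9349 for 10 to 100 kb and 9734 beyond 100 kb. The nearest ZMYND11 region also tended to stand later for ETS2 regions without overlap that stood later, though not steadily. Its median place was 50.5 in the first 10% of the ETS2 list and 1036 in the last 10%. In the sixth to the ninth 10% it was 788, 690, 654 and 1324. Matching values for ETS2 regions with ZMYND11 were not computed.

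Most of these neighbouring ZMYND11 regions carried no ETS2 themselves, as was so for the ZMYND11 list as a whole. Of all 15676 knockout ZMYND11 regions, 582 overlapped ETS2. These overlaps were concentrated early in the ZMYND11 list: 464 of the 582 ETS2 regions with ZMYND11 had it in the first 10%. The nearest ZMYND11 region was also in the first 10% for 319 of the 438 regions without overlap. The share over the whole list is therefore not a like comparison for these neighbours, and a share matched by list place was not computed. Of the 218 ETS2 regions with ZMYND11 within 1 kb, the nearest ZMYND11 region overlapped another ETS2 region in 10 cases (4.59%, interval 2.51 to 8.24%), and over all 438 in 64 (14.6%, 11.6 to 18.2%). No pair of ETS2 regions was closer than 617 bp, which limits how often a second ETS2 region could be found so near. Seen from ZMYND11, 76 of its first 100 regions overlapped ETS2. Of the other 24, 20 were the nearest ZMYND11 region, at 1 kb or less, of an ETS2 region without overlap. Thus 96 of the first 100 had ETS2 on them or were the nearest ZMYND11 region of an ETS2 region within 1 kb.

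The ETS2 regions without ZMYND11 lay on either side of their neighbour. The nearest ZMYND11 region was on the side of lower coordinates for 190 regions (43.4%, interval 38.8 to 48.1%) and on the side of higher coordinates for 246 (56.2%, 51.5 to 60.7%). ZMYND11 lay within 10 kb on both sides for 190 regions (43.4%), on 1 side for 211 (48.2%) and on neither for 37 (8.45%). A median of 2 ZMYND11 regions lay within 10 kb and 9 within 100 kb. For ETS2 regions overlapping ZMYND11 the same medians, without the overlapped region itself, were 1 and 6. The nearest ZMYND11 region was left out for that group only, and counting it would raise each of its counts by 1.

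One layout that was found was a ZMYND11 region free of ETS2 with an ETS2 region on each side. There were 28 such ZMYND11 regions with ETS2 regions without overlap within 5 kb on both sides, flanked by 64 ETS2 regions in all, and all 28 were in the first 10% of the ZMYND11 list (median place 238). The 56 gaps to the nearest ETS2 region on either side had a median of 671 bp. In 10 of the 28 both gaps were under 1 kb. At chr7:130557553-130558046 (ZMYND11 place 115) the flanking ETS2 regions began 153 bp above and ended 224 bp below. At chr16:2201342-2201843 (place 61) the gaps were 59 bp below and 388 bp above. At chr14:104165390-104165887 (place 59) they were 687 bp below and 565 bp above. That ETS2 was listed close to these ZMYND11 positions on both sides, and not on them, is how they were chosen. The whole ZMYND11 list held 15676 regions, and 582 of them overlapped ETS2. How many of those 582 were flanked in the same way was not counted. These 28 regions and the 3 examples were chosen after their positions were seen.

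ETS2 regions without ZMYND11 stood closer to other ETS2 regions than those with ZMYND11 did. Another ETS2 region lay within 10 kb for 200 of 438 (45.7%, interval 41.1 to 50.3%), against 93 of 582 with ZMYND11 (16.0%, 13.2 to 19.2%) and 28.7% of the whole list. Within 2 kb the shares were 24.9% and 5.84%. The median gap to the next ETS2 region was 19.9 kb (quartiles 2.07 and 352 kb) without ZMYND11 and 131 kb (22.2 and 938 kb) with it. The share within 10 kb was larger without ZMYND11 in each of the 10 parts of the list. It ranged from 24.6% in the ninth part to 62.9% in the third, against 8.96 to 22.0% for regions with ZMYND11. Of the 200, 130 had another region without ZMYND11 as their nearest ETS2 region and 70 had one overlapping ZMYND11. For the 93 with ZMYND11 the same counts were 71 and 22. A nearest region without ZMYND11 was thus the more frequent in both groups. For 47 of the 70 regions without ZMYND11 whose nearest ETS2 region overlapped ZMYND11, that neighbour stood earlier in the list. Regions overlapping ZMYND11 stood earlier over the whole list too (median place 410 against 632), so this count does not set close pairs apart.

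**Figure D3:**
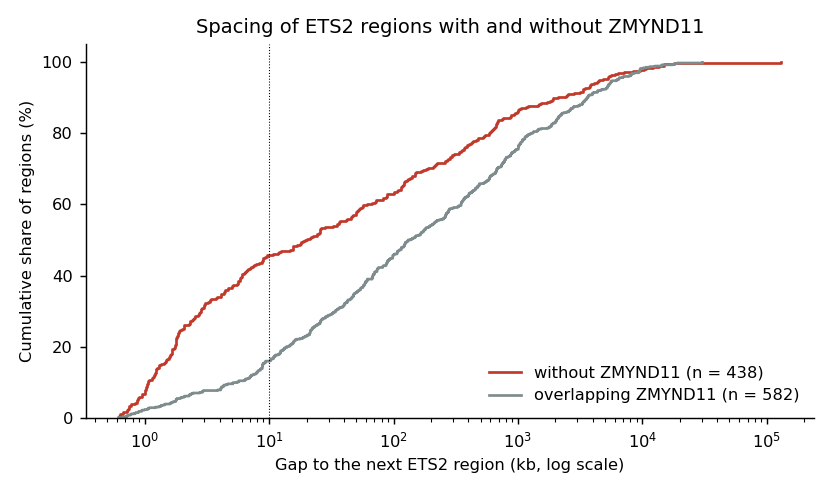
Cumulative share of ETS2 regions in percent (vertical axis) by the gap to the next ETS2 region in kb (horizontal axis, log scale), for the 438 regions without (red) and the 582 with (grey) ZMYND11 in knockout cells. At the dotted line at 10 kb the red curve is at 45.7% and the grey curve at 16.0%, and the curves meet at the widest gaps.

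Close spacing was found among regions that also had ZMYND11 nearby. Among the 183 regions with a ZMYND11 gap of 1 to 10 kb, 123 (67.2%) had another ETS2 region within 10 kb. The share was 38.6% for ZMYND11 gaps of 250 bp to 1 kb and 30.2% for gaps up to 250 bp. Of the 35 nuclear regions with no ZMYND11 region within 10 kb, 0 had another ETS2 region within 10 kb. This allows a share of up to 8.57%, taken as 3 counts in 35 and not from a Wilson interval. At the other extreme of spacing, 61 regions without ZMYND11 (13.9%) and 143 with it (24.6%) had no ETS2 region within 1 Mb.

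When ETS2 regions without ZMYND11 were joined wherever neighbouring midpoints were at most 10 kb apart, 299 stood alone, 98 formed 49 pairs, and 41 formed 13 runs of 3 or more. The longest run held 5 regions at chr5:65395992-65404513, a span of 8.52 kb, with midpoints 1.53 to 2.60 kb apart. Its members stood at places 284, 261, 421, 68 and 364 of the ETS2 list, from lower to higher coordinates. A single ZMYND11 region, at place 278 of its list, lay inside the run between the second and the third ETS2 region, and no ETS2 region there overlapped it. This megabase of chromosome 5 held 6 ETS2 regions in all and 9 ZMYND11 regions.

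The other 12 runs held 3 regions each. Ordered by the earliest list place in each, the runs were chr12:52638018-52648718, chr5:148865946-148871982, chr11:65267497-65271628, chr12:13073493-13080567, chr17:56070723-56077683, chr5:176858761-176869268, chr7:130555709-130558695, chr14:21666680-21672472 and chr8:145539618-145544261, followed by 3 more on chromosomes 17 and 11. The spans went from 2.99 kb on chromosome 7 to 12.6 kb on chromosome 11. Of the 13 runs, 10 had 1 ZMYND11 region of knockout cells inside, at places 39 to 822 of that list, and 3 had none. The run at chr11:65267497-65271628 had none inside. Its regions at places 853 and 884 had the ZMYND11 region at place 13 as their neighbour, at 5668 and 3273 bp. An ETS2 region overlapping ZMYND11 lay inside 1 of the 13 runs. In 9 of the 13 runs the ETS2 regions stood around a ZMYND11 region that carried no ETS2, at places 39 to 489 of its list.

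**Figure D4:**
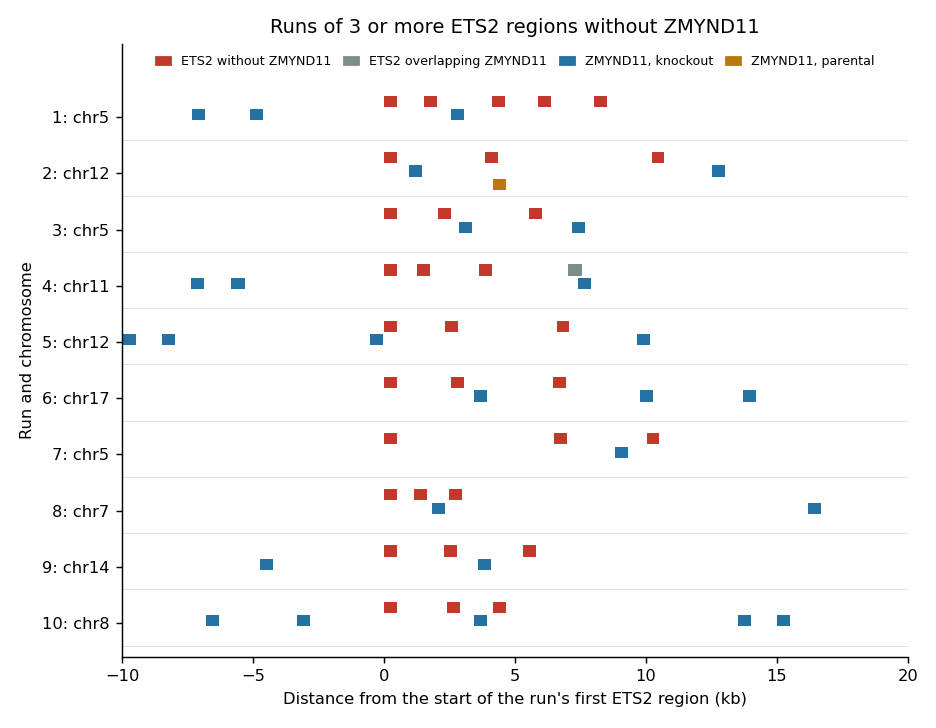
Position in kb from the start of the first ETS2 region (horizontal axis) of the regions in and around the first 10 runs (rows, ordered by number of regions and then by list place). ETS2 regions without ZMYND11 are red, ETS2 regions overlapping ZMYND11 grey, ZMYND11 of knockout cells blue and ZMYND11 of parental cells orange. In 8 of the 10 runs a single blue region lies inside the run.

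Of the first 20 ETS2 regions without ZMYND11, 9 had a gap of at most 500 bp. The region chr19:51297953-51298454, at place 15, lay 130 bp from the ZMYND11 region at place 19. The region chr11:65195861-65196361, at place 26, lay 129 bp from the ZMYND11 region at place 54. The region chr19:10225209-10225704, at place 35, lay 368 bp from the ZMYND11 region at place 10. That neighbour was the single region among the first 10 of the ZMYND11 list that did not overlap ETS2. The regions chr16:89630956-89631450 (place 44), chr7:26226509-26227009 (place 45) and chr22:21352881-21353381 (place 59) lay 200, 129 and 65 bp from the ZMYND11 regions at places 28, 46 and 15. The regions chr16:88874739-88875237 (place 69), chr19:46272725-46273219 (place 95) and chr11:93462195-93462690 (place 104) lay 458, 358 and 107 bp from those at places 40, 355 and 75. The neighbours of these 9 thus stood at places 10 to 355 of the 15676 in the ZMYND11 list.

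A further 8 of the first 20 had a gap of 500 bp to 5 kb. The regions chr19:50358426-50358926 (place 107), chr2:191812269-191812756 (place 62) and chr21:44253353-44253854 (place 48) were 705, 758 and 880 bp away from ZMYND11 regions at places 148, 102 and 22. The regions chr19:5696650-5697149 (place 42), chr2:27600855-27601348 (place 81) and chr5:65401850-65402351 (place 68) were 1126, 2163 and 2801 bp away from those at places 47, 184 and 278. The regions chr13:109924283-109924777 (place 52) and chr11:65190358-65190859 (place 49) were 3904 and 4373 bp away from those at places 359 and 54. The neighbours of these 8 stood at places 22 to 359. The other 3 of the first 20 were far from ZMYND11 and are described next.

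The 2 earliest regions that had no ZMYND11 on their sequence were mitochondrial, at positions 3 to 504 (place 9) and 16128 to 16629 (place 23). They lie at opposite ends of the numbering, which adjoin in the circular genome, within the non-coding control region from which mitochondrial transcription starts. The end of the second lies past the last base of the mitochondrial sequence. Mitochondrial DNA is present in many copies per cell. No input library was analysed here, and how reads on it were treated is not given in the sources used here.

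The third far region among the first 20 was chr7:56534455-56534950 (place 101), 0.370 Mb from ZMYND11. In total, 22 nuclear regions had no ZMYND11 midpoint within 100 kb. None of them had another ETS2 region within 100 kb, and 8 had one within 1 Mb. Of the 22, 18 were in the second 50% of the ETS2 list. Of all 438 regions without ZMYND11, 167 (38.1%) were in the first 50%. On chromosome 7, chr7:57187774-57188274 (place 391) and chr7:63538858-63539359 (place 286) joined the region at place 101, at 1.02 and 0.420 Mb from ZMYND11. These 3 lie on both sides of the centromere of chromosome 7.

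The largest distance was 1.77 Mb, at chr6:121026608-121027083 (place 534). Besides the region on chromosome 7, distances over 1 Mb were found at chr2:90450932-90451392 (place 891, 1.37 Mb) and chr2:40704942-40705442 (place 705, 1.35 Mb). The region chr2:40122084-40122562 (place 974) was 0.771 Mb away, with the same ZMYND11 neighbour as the region at place 705 and 0.582 Mb from it. The X chromosome gave chrX:22812266-22812644 (place 517), 0.992 Mb from ZMYND11, and with 378 bp the shortest of the 438 regions. The next ETS2 region was 12.1 Mb from the region on chromosome 6 and 19.1 Mb from the one on the X chromosome, so both stood alone on long stretches in both knockout lists.

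Distances of 0.5 to 0.8 Mb were found at chr8:31357672-31358116 (place 576, 0.719 Mb), chr19:22654908-22655409 (place 770, 0.644 Mb), chr6:18840047-18840500 (place 870, 0.603 Mb) and chr10:65954414-65954913 (place 962, 0.568 Mb). Distances of 0.2 to 0.4 Mb were found at chr4:27233926-27234388 (place 915, 0.372 Mb), chr5:132966495-132966992 (place 914, 0.338 Mb), chr3:75786759-75787249 (place 506, 0.304 Mb), chr8:53626824-53627320 (place 1009, 0.288 Mb) and chr10:16614184-16614681 (place 766, 0.245 Mb). The shortest were at chr5:125832217-125832715 (place 970, 0.132 Mb), chr2:156817503-156818001 (place 769, 0.128 Mb), chr5:150275223-150275723 (place 801, 0.127 Mb), chr9:102737372-102737858 (place 841, 0.123 Mb) and chr12:31692912-31693392 (place 832, 0.120 Mb). The region on chromosome 9 differed from the others in its neighbour, the ZMYND11 region at place 301 of its list. It lay 0.123 Mb from the next ETS2 region. The median place of the neighbour over the 22 was 9734.

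Parental ZMYND11 was not used to choose the regions. It overlapped 7 of the 438 (1.60%, interval 0.776 to 3.26%), against 11 of 582 ETS2 regions with knockout ZMYND11 (1.89%, 1.06 to 3.35%) and 1.76% of the whole ETS2 list. The intervals overlap, and the difference was not tested. Within 10 kb or overlapping, a parental region was listed for 31 regions without knockout ZMYND11 (7.08%) and 37 with it (6.36%), and within 100 kb for 103 (23.5%, 19.8 to 27.7%) and 100 (17.2%, 14.3 to 20.5%).

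The 7 regions with ETS2 in knockout cells and ZMYND11 in parental cells had a knockout ZMYND11 region at 165 to 4373 bp. The region chr19:5696650-5697149 (ETS2 place 42) overlapped the parental region at place 105 by 382 bp. The region chr19:5691793-5692294 (place 643) overlapped the parental region at place 15 by 377 bp. They had the same knockout neighbour, ZMYND11 place 47, which lay between them at 1126 and 2729 bp. This locus thus held parental ZMYND11 on both ETS2 positions and knockout ZMYND11 between them.

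The region chr11:65190358-65190859 (place 49) had the largest overlap with a parental region, 456 bp with the one at place 145. The region chr16:89630956-89631450 (place 44) overlapped the parental region at place 163 by 388 bp, and chr12:52641870-52642365 (place 131) the one at place 288 by 194 bp. The region chr17:79479106-79479606 (place 761) overlapped the parental region at place 3 by 165 bp, and a knockout region lay 89 bp from that parental region. The region chr20:60881249-60881746 (place 337) overlapped parental place 64 by 39 bp, and that parental region itself overlapped knockout ZMYND11 by 291 bp. In the last case the ETS2 region and the knockout region therefore touched opposite ends of 1 parental region. Of the 7, 5 had another ETS2 region within 10 kb and 3 were in the first 10% of the ETS2 list.

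The 438 regions were spread over 263 megabases, 160 of which held 1 region each. The 4 chromosomes with most, 17, 19, 5 and 11, held 177 of them. Chromosome 17 had 54 of its 103 ETS2 regions without ZMYND11 (52.4%, interval 42.9 to 61.8%) and chromosome 5 had 39 of 76 (51.3%, 40.3 to 62.2%). Chromosome 19 had 46 of 112 (41.1%, 32.4 to 50.3%) and chromosome 11 had 38 of 87 (43.7%, 33.7 to 54.1%). Chromosome 1, with the most ETS2 regions, had 37 of 113 (32.7%, 24.8 to 41.8%), an interval that ends below the 42.9% of the whole list. Its interval was 1 of 25 examined, without adjustment. On chromosome 15 the count was 2 of 11, and the single region on the Y chromosome overlapped ZMYND11.

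**Figure D5:**
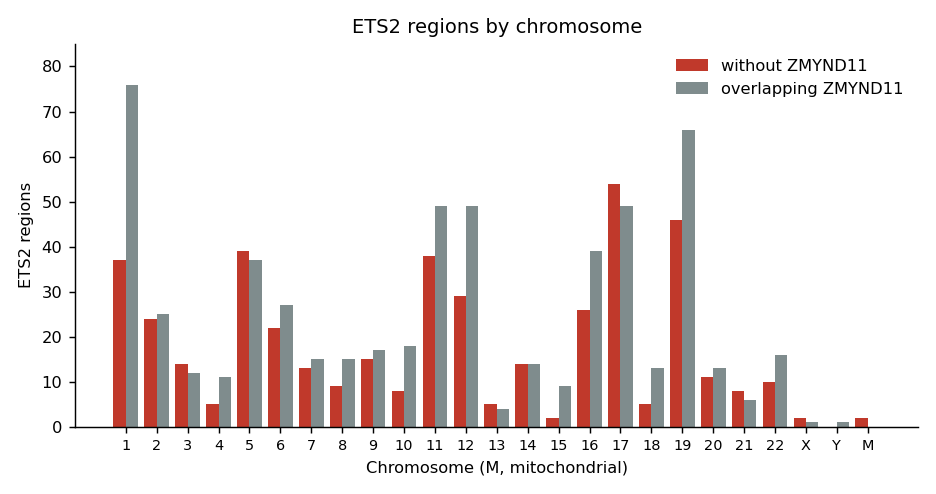
Number of ETS2 regions (vertical axis) on each chromosome (horizontal axis; M is the mitochondrial sequence) without (red) and with (grey) an overlapping ZMYND11 region in knockout cells. Red exceeds grey most on chromosome 17 (54 and 49), and grey exceeds red most on chromosome 1 (76 and 37). Red also exceeds grey on chromosomes 5 (39 and 37), 3 (14 and 12), 21 (8 and 6), 13 (5 and 4), X (2 and 1) and M (2 and 0).

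The densest megabase was chromosome 11 from 65 to 66 Mb, with 11 ETS2 regions without ZMYND11 and 6 with it, beside 70 ZMYND11 regions. Their places ranged from 26 to 1003, so that early and late regions of the list stood together. Chromosome 17 from 7 to 8 Mb held 9 without and 4 with ZMYND11, beside 47 ZMYND11 regions, and from 79 to 80 Mb it held 7 and 3, beside 69. Chromosome 14 from 50 to 51 Mb held 6 without and 1 with ZMYND11, beside 43 ZMYND11 regions and 4 parental ones. Chromosome 5 from 65 to 66 Mb, where the run of 5 lies, held 5 and 1, beside 9, and was the earliest-listed of 4 megabases with 5. The first 4 of these megabases had at least 43 ZMYND11 regions each, and the fifth had fewer. Each of these megabases held more ETS2 regions without ZMYND11 than with it. They were chosen by their number of regions without ZMYND11, which favours such an excess.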

How the data were processed

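ChIP-seq region lists of 3 libraries were analysed: ZMYND11 in parental and in ETS1-knockout DU145 cells and ETS2 in ETS1-knockout cells, grouped by sample title. The authors deposited chromosome, start and end of each region, with no score or count. Bowtie2 2.0.6 and hg19 were used, per the submitters' processing notes. Peak caller, threshold and control, which affect what is listed, were not given in the sources used here. ETS2 regions sharing at least 1 bp with no knockout ZMYND11 region were kept. No ETS2 region abutted a ZMYND11 region (0 pairs), so counting ends as inside or outside does not change the count. Gaps run from edge to edge to the nearest region on the same chromosome. The distance procedure was tested on simulated data. The regions, the comparisons and the rules for naming regions were chosen with earlier results of these data known. Named were the first 20 regions, those overlapping parental ZMYND11, those over 100 kb from knockout ZMYND11, the 5 nearest to either side of the overlap limit, the 5 densest megabases and the 10 longest runs. Gene features and motifs had been planned for a genome of the same build and were not analysed here. Python 3.11.15, numpy 2.4.6, pandas 2.3.3, scipy 1.17.1 and matplotlib 3.10.9 were used.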

Additional observations from a re-analysis of the deposited data

How the results depend on the processing

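Of 18 alternatives, 7 moved a share or median outside its 95% counting interval or a number by over 1.5 times. The 438 regions without ZMYND11 became 596 of 1020 when a reciprocal overlap of 50% was required, which makes them the larger part of the ETS2 list. They became 287 when midpoints within 1000 bp counted as shared. In the first 50% of the ETS2 list they became 167, beside 343 with ZMYND11. Fewer regions entered there, and the share without ZMYND11 was also smaller. It was 17.6 to 47.1% in each 10% of the list there, against 43.1 to 62.7% in the second 50%. The median distance to ZMYND11 was 1500 bp between midpoints, against 1005 bp between edges. The share with another ETS2 region within 10 kb (45.7%) was 7.53% at 1 kb and 63.0% at 100 kb. With settings chosen after seeing the data, it was 53.7% for the 287 regions farther from ZMYND11 (19.0% for the other 733). With another such setting it was 34.7% within the first 50% of the ETS2 list (10.8% with ZMYND11). There, regions of the second 50% were also left out as neighbours, which lowers both shares. With neighbours from the whole list, each 10% of the list in that part had 48.4 to 62.9% without ZMYND11. With ZMYND11 it had 8.96 to 19.4%. No paired analysis was possible because each group has 1 library, and no replicate could be left out. Alternatives on gene starts and motifs were not run. Depth is unknown, so detection limits could not be given.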
